A study of Mus musculus with 50 samples.

Results

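PanCK-bright cells were the segmented liver cells with the strongest stain for pan-cytokeratin (PanCK), an antibody mixture against keratin proteins. Of 52132 segmented cells, 49917 held at least 20 gene counts, and within each tissue area the 2% of these cells with the highest mean PanCK intensity were called bright, so that the members were chosen by the stain. This gave 1001 bright cells, 164, 137 and 142 in Control areas 1 to 3 and 204, 203 and 151 in HIRA KO areas 1 to 3. They were set against the 24952 cells below the median PanCK intensity of their own area. The stain alone placed a cell on either side, so its intensity is given only as a description, and gene counts, the other stains, cell shape and position were compared.

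The sections came from a study of HIRA, which deposits histone H3.3 into chromatin outside of DNA replication. Both groups, labelled WT (here Control) and HIRA_KO, received the virus AAV8 Tbg-Cre by retro-orbital injection, in which the hepatocyte promoter Tbg drives the Cre recombinase. The HIRA KO mice were C57BL/6 animals homozygous for floxed HIRA (HIRA fl/fl), so the deletion was aimed at hepatocytes and other liver cells should keep the gene, while the Control mice were wild type. Injection was at 6 months of age and collection 12 months later, at 18 months, with 3 biological replicates stated per group. Transcripts were read in place on 5 µm sections of fixed, embedded liver with the CosMx Spatial Molecular Imager, which decodes each spot as 1 transcript of 1 target and assigns it to a segmented cell.

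The labels gave the genotype of 50 fields of view and named no mouse, so the tissue area, a run of 8 or 9 fields, was the unit. Each genotype filled a slide column of its own, so genotype and column cannot be told apart. The panel held 1000 targets and 10 negative probes, and Hira was not a target. Summed gene counts were 13369 to 28758 per area for bright cells and 372744 to 742074 for below-median cells, so the bright side set the precision. Negative probes gave 3.14 to 4.28 counts per 1000 gene counts in bright cells and 3.47 to 4.30 in below-median cells.

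In a healthy liver, keratins mark epithelium. Hepatocytes make the simple epithelial keratins KRT8 and KRT18, and cholangiocytes, which line the bile ducts, make these at higher density together with KRT7 and KRT19. Cholangiocytes also carry osteopontin (SPP1), EPCAM, E-cadherin and the transcription factor SOX9, which marks the biliary lineage. In injured liver, ductules can expand and hepatocytes can take on biliary markers.

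The stain had no gap at the threshold. The dimmest bright cell and the brightest cell left out had mean PanCK intensities of 4242.2 and 4237.7 in Control area 1, 3402.3 and 3401.6 in Control area 2, and 4468 and 4466.3 in Control area 3. In the HIRA KO areas these pairs were 3565.9 and 3565.6, 2920.3 and 2920, and 4367.2 and 4366.6. The median of bright cells was 1.47 times (Control area 2) to 1.91 times (HIRA KO area 1) that of below-median cells. Bright cells were the end of a continuous distribution, and Control area 2 had the smallest ratio.

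Genes of the biliary list led the difference between bright and below-median cells. Of 998 genes tested, 26 (2.61%) were called, 23 (2.3%) higher and 3 (0.301%) lower in bright cells, by edgeR's quasi-likelihood test on the 12 sums, with the tissue area as a block and a Benjamini-Hochberg adjusted p under 0.05. Of the 11 biliary markers measured, 7 rose, 0 fell and 4 did not pass, with a median log2 fold change of 0.92 against -0.0026 over all genes tested. At an unadjusted p under 0.05, 81 genes (8.12%) were higher and 46 (4.61%) lower, and 28 (2.81%) were higher and 48 (4.81%) lower in all 6 areas. Because counts were summed over cells, more cells of a type among the bright cells and more RNA of these genes per cell cannot be told apart here.

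Spp1, which encodes osteopontin, a secreted glycoprotein of ductal epithelium (chr5:104435118-104441050, + strand, GRCm38), made up 69.3, 21.7 and 102 of 10000 gene counts in the bright cells of Control areas 1 to 3, and 50.1, 45.6 and 24.5 in those of HIRA KO areas 1 to 3. In below-median cells it made up 9.43, 4.80 and 8.99, and 6.60, 7.76 and 5.23. Every bright value lay above every below-median value, with Control area 2 and HIRA KO area 3 lowest. The log2 fold change was 2.81 (SE 0.15, edgeR adjusted p = 2.1e-11).

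Clu, the gene of the chaperone clusterin (chr14:65968483-65981547, + strand), stood at 135, 47.9 and 172 per 10000 in Control and at 207, 162 and 88.2 in HIRA KO bright cells. Below-median cells held 53.1, 22.1 and 31.9, and 42.5, 40.4 and 34.3. Bright cells were higher in all 6 areas, but the bright value of Control area 2 lay below the below-median value of Control area 1, so levels overlapped across areas and not within them. The log2 fold change was 1.83 (SE 0.18, edgeR adjusted p = 1.15e-06).

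Krt19, the keratin that separates cholangiocytes from hepatocytes (chr11:100140810-100148665, - strand), was at 16.4, 14.96 and 22.8 per 10000 in Control and 13.6, 11.1 and 5.22 in HIRA KO bright cells. The below-median values were 6.31, 5.97 and 4.69, and 5.58, 5.77 and 4.60. All 6 areas were higher in bright cells, HIRA KO area 3 by the least. The log2 fold change was 1.34 (SE 0.19, edgeR adjusted p = 0.000183). The mean count of Krt19, 176.2 per sum, lay only a little above that of the highest negative probe, 159.8.

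Of the other biliary markers, Anxa4, a calcium-dependent membrane-binding protein of secretory epithelium, was higher in all 6 areas (log2 fold change 0.94, SE 0.14, edgeR adjusted p = 0.000381). Sox9 (1.03), Cdh1, which encodes E-cadherin (0.92), and Epcam, an epithelial adhesion molecule (0.91), also rose, each in 5 of 6 areas. Control area 2 was the exception each time, where Sox9 was at 7.48 per 10000 in bright and 8.10 in below-median cells, Cdh1 at 6.73 and 10.8, and Epcam at 1.496 and 3.07. Krt7 (log2 fold change 0.68, edgeR adjusted p = 0.123), Cd24a (0.47, 0.182) and Cldn4 (0.24, 0.526) were among those that did not pass. Epcam was close to the threshold (adjusted p = 0.0471 by edgeR), and its call was lost without any 1 of the areas except Control area 2. In all, its call was lost under 13 of the 21 alternatives run. The mean count of Epcam, 98.5 per sum, lay below that of the highest negative probe, 159.8.

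**Figure D1:**
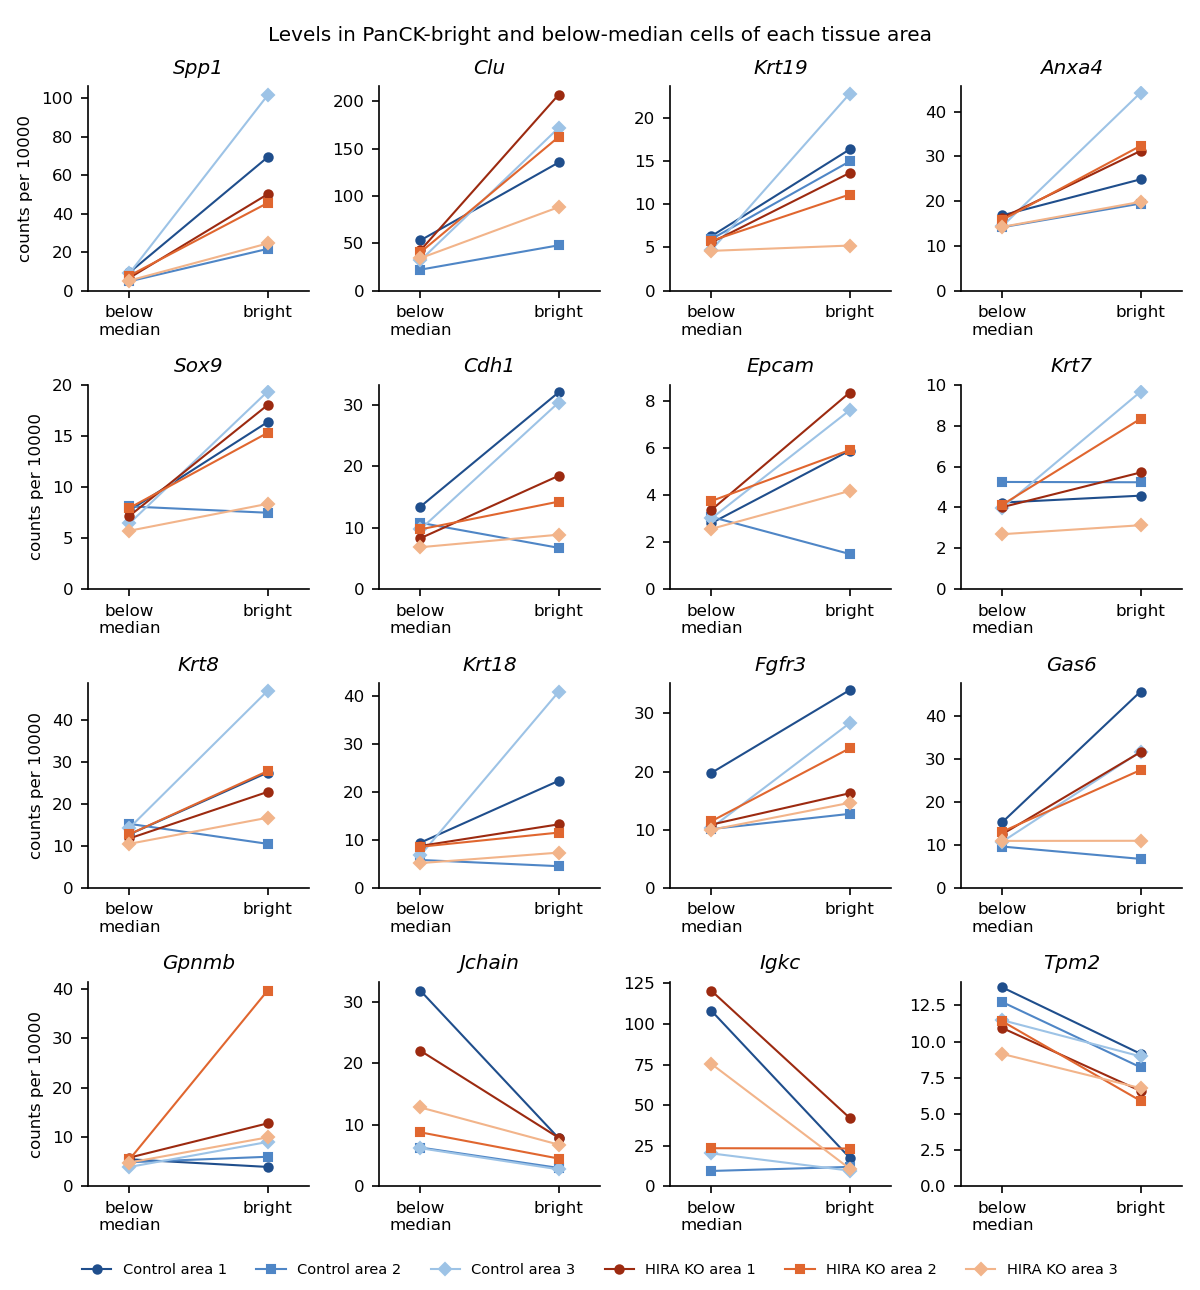
Counts per 10000 gene counts (y axes, linear, from 0) of 16 genes in the below-median and the PanCK-bright cells of each of the 6 tissue areas, with lines joining the sides of an area. Spp1, Clu, Krt19, Anxa4 and Fgfr3 were higher in bright cells in all 6 areas, whereas Sox9, Cdh1, Epcam, Krt8, Krt18 and Gas6 were not higher in Control area 2.

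Some of the keratin transcripts were higher in the cells bright for keratin protein. Of 17 keratins measured, 3 rose (Krt8, Krt18 and Krt19), 0 fell and 14 did not pass, with a median log2 fold change of 0.14. Over all 998 genes tested, 2.3% rose. Krt8 and Krt18, which encode the partner keratins of simple epithelia and lie close to each other on chromosome 15 (chr15:101996698-102004482 and chr15:102028180-102032027), had log2 fold changes of 1.004 (SE 0.17, edgeR adjusted p = 0.00113) and 1.08 (SE 0.24, edgeR adjusted p = 0.0141). Krt8 was at 27.5, 10.5 and 46.97 per 10000 in Control and 22.9, 27.8 and 16.7 in HIRA KO bright cells, against 12.7, 15.2 and 14.3 and 11.8, 12.8 and 10.5 below the median. Krt18 was at 22.2, 4.49 and 40.8 and at 13.2, 11.5 and 7.31, against 9.38, 5.78 and 6.76 and 8.70, 8.53 and 5.12. Control area 2 was again the area without a higher value for either gene. Without Control area 3 the log2 fold change of Krt18 was 0.66 and still passed (edgeR adjusted p = 0.0478).

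Summed over Krt7, Krt8, Krt18 and Krt19, a set grouped after the values were seen, bright cells held 0.707%, 0.352% and 1.20% of gene counts in Control and 0.554%, 0.588% and 0.324% in HIRA KO. Below-median cells held 0.229% to 0.327%. The ratio of the sides ran from 1.09 in Control area 2 to 4.04 in Control area 3, so the sum of the set was higher in bright cells in all 6 areas. In Control area 2 Krt8 and Krt18 by themselves were lower in bright cells, while Krt19 was higher (14.96 against 5.97 per 10000). The set holds the 3 keratins called above, so its sum is no separate evidence. The remaining keratins did not pass, among them Krt14 (log2 fold change 0.26), Krt10 (0.16), Krt13 (0.14), Krt17 (0.18), Krt80 (0.05), Krt20 (0.01), Krt15 (-0.04), Krt16 (-0.12), Krt6a (-0.14), Krt86 (-0.26), Krt1 (-0.29) and Krt4 (-0.29), with edgeR adjusted p from 0.552 to 1. Krt23, a keratin known from ductal cells and injured liver, had 0.59 (edgeR adjusted p = 0.186).

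Of 9 epithelial adhesion genes measured, 3 rose and 0 fell, with a median log2 fold change of 0.41. Beside Cdh1 and Epcam, the member that rose was Ctnnb1, the gene of beta-catenin, which ties E-cadherin to the cytoskeleton (0.51, SE 0.13, edgeR adjusted p = 0.032), and it lost its call without Control area 3 or any HIRA KO area (0.44 to 0.51). The integrin gene Itga6 had 0.06 (edgeR adjusted p = 0.92).

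Of the 23 genes that rose, 10 belonged to the biliary, keratin or adhesion lists and 13 to none of them. Of these 13, 7 were higher in all 6 areas: Fgfr3 (log2 fold change 0.88) and Fgfr2 (0.61), receptors for fibroblast growth factors, Ezr (0.74), which links membrane to actin at the apical surface of epithelia, Cstb (0.65), an inhibitor of cathepsins, Adgrg1 (0.62), an adhesion receptor, S100a10 (0.56), the partner of annexin A2, and Cd9 (0.55), a tetraspanin. The other 6 were named after their values were seen, and each was higher in 5 areas: Gpnmb (1.47), a glycoprotein of lipid-laden macrophages, Gas6 (1.08), a ligand of the TAM receptors, Pdgfd (0.89), a growth factor, Tm4sf1 (0.85), a membrane protein, App (0.62), the amyloid precursor, and Anxa2 (0.61), an annexin. Of all 26 called genes, Spp1, Clu, Krt19, Anxa4, Fgfr3, Gas6 and Krt8 kept their call under each of the 21 alternatives run, and 14 kept it when any 1 area was left out. Without Control area 3, where Ezr was at 41.4 per 10000 in bright cells against 10.8 to 15.1 in the other areas, its log2 fold change was 0.39 and did not pass (edgeR adjusted p = 0.215), and it was also lost without HIRA KO area 1 or 3. The log2 fold changes of Fgfr2 (0.52 to 0.66), App (0.48 to 0.76), Adgrg1 (0.51 to 0.71) and Anxa2 (0.54 to 0.69) kept their sign with any area left out, but Fgfr2 lost its call without Control area 1 or any HIRA KO area, App without any area but Control area 2 and HIRA KO area 3, Adgrg1 without area 1 or 3 of either group, and Anxa2 without any area but Control area 2. Pdgfd lost its call without HIRA KO area 1 or 2, and Cd9 without HIRA KO area 1 or 3. The mean count of Pdgfd, 145.1 per sum, lay below that of the highest negative probe, 159.8.

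**Figure D2:**
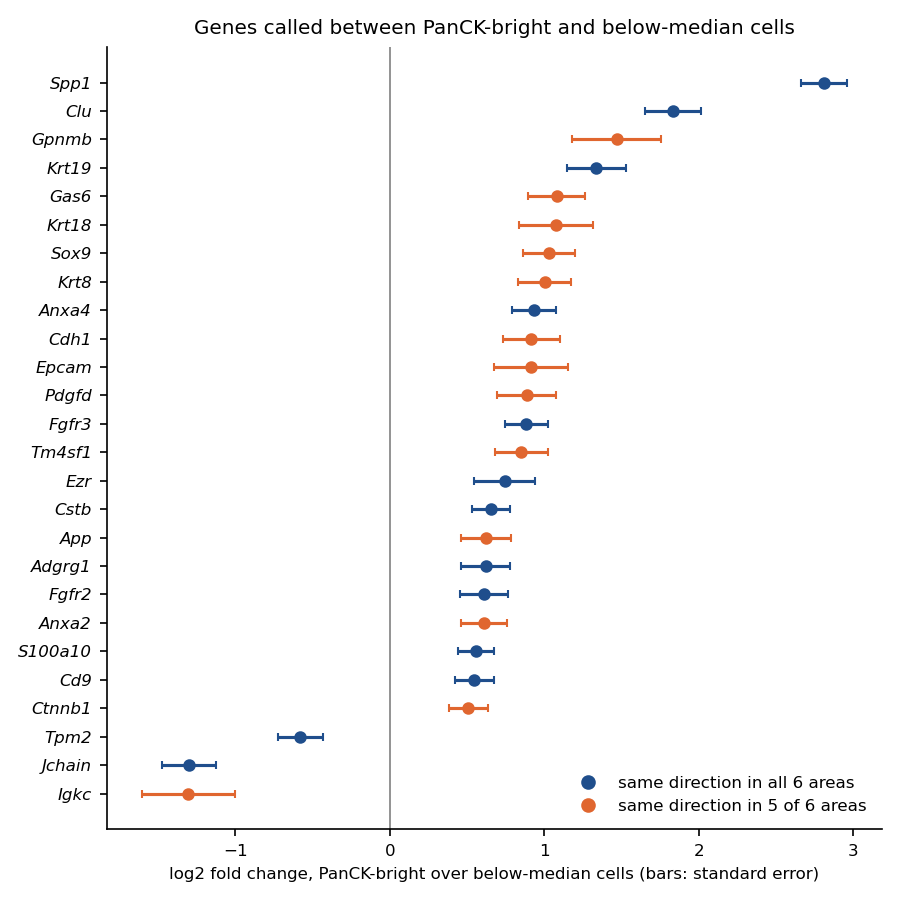
Log2 fold change of PanCK-bright over below-median cells (x axis) with its standard error (bars) for the 26 genes with an edgeR adjusted p under 0.05. Blue points had the same direction in all 6 tissue areas and orange points in 5 of 6, and Spp1 stood apart at 2.81.

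Antibody genes led the 3 genes that fell. Jchain, the chain that joins polymeric antibodies, was at 7.85, 2.99 and 2.76 per 10000 in Control and 7.91, 4.52 and 6.78 in HIRA KO bright cells, against 31.8, 6.31 and 6.20 and 22.1, 8.79 and 12.8 below the median. It was lower in all 6 areas (log2 fold change -1.30, SE 0.18, edgeR adjusted p = 0.000115). Igkc, the kappa light chain, had the same log2 fold change of -1.30 (SE 0.30, edgeR adjusted p = 0.0177) but was at 12.0 in bright and 9.45 in below-median cells of Control area 2, and it lost the call when Control area 1 or either of HIRA KO areas 1 and 3 was left out. Of 8 plasma cell genes, 2 fell and 0 rose, with a median of -0.58. The plasma cell share of counts averaged 2.37% below the 25th percentile of PanCK intensity and 0.662% between the 25th and 50th, with SDs of 1.69 and 0.11 over the 6 areas. It was higher in the dimmest cells in 5 areas and not in Control area 2 (0.569% and 0.581%). Tpm2, a tropomyosin of contractile cells, fell by 0.58 on the log2 scale (SE 0.15, edgeR adjusted p = 0.0357) and lost its call under 16 of the 21 alternatives.

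Hepatocyte genes did not separate the sides. Of 9 genes of secreted hepatocyte proteins 0 rose and 0 fell by edgeR, while 1 was lower at an unadjusted p under 0.05, and the median log2 fold change was -0.16. Ttr, which encodes the thyroxine carrier transthyretin (-0.16, edgeR adjusted p = 0.844), Apoe (0.33, 0.464) and Apoc1 (-0.08, 0.892), apolipoproteins, were the most counted. The summed share of all 9 genes was 3.43%, 7.16% and 3.76% in Control and 4.92%, 9.83% and 10.8% in HIRA KO bright cells. Below the median it was 5.13%, 5.90% and 6.17%, and 5.62%, 7.94% and 9.12%. Bright cells were thus lower in 3 areas and higher in 3, Control area 2 and HIRA KO areas 2 and 3. Among hepatocyte enzymes and regulators 0 of 9 passed, with a median of -0.19, 8 of 9 below 0 and the list's share lower in bright cells in all 6 areas. Neat1, a nuclear noncoding RNA, had -0.68 (edgeR adjusted p = 0.0625) and Glul, the glutamine synthetase of pericentral hepatocytes, -0.43 (edgeR adjusted p = 0.258).

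Markers of other cells of the liver gave few calls. By edgeR, 0 genes passed of the Kupffer (8 tested, median log2 fold change 0.18), sinusoidal endothelial (7, -0.21), large-vessel endothelial (7, -0.01), stellate (6, -0.23), portal fibroblast and collagen (13, -0.11), MHC class II myeloid (7, -0.06), T and NK (15, -0.08), B (6, -0.17), neutrophil (5, 0.24), erythroid (2, 0.33), proliferation (6, -0.15) and acute phase (5, 0.20) lists. At an unadjusted p under 0.05, genes of these lists were higher for 2 acute phase, 1 neutrophil and 1 erythroid gene and lower for 1 sinusoidal endothelial, 2 stellate, 1 T and NK and 1 B gene. All 6 stellate genes lay below 0, and the stellate share of counts was lower in bright cells in all 6 areas. Of 6 smooth muscle and myofibroblast genes, 1 (Tpm2) was called lower, 2 were lower at an unadjusted p under 0.05, and all 6 lay below 0 (median -0.34). The most counted members had log2 fold changes of -0.05 for C1qb of Kupffer cells, -0.43 for Cxcl12 and -0.40 for Dcn of stellate cells, 0.05 for Cd74 of antigen-presenting cells and -0.31 for Ccl5 of T and NK cells. Cd3e, a chain of the T cell receptor complex, had 0 counts in the series. DESeq2, the other tool, called 19 genes higher and 1 lower over the whole panel.

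Biliary markers as a group made up 3.36%, 1.44% and 4.28% of gene counts in Control and 3.80%, 3.17% and 1.84% in HIRA KO bright cells. Below-median cells held 1.35%, 0.969% and 1.02%, and 1.14%, 1.16% and 0.941%. The sides did not overlap, and their ratio ran from 1.48 in Control area 2 to 4.20 in Control area 3. Without Clu the share was 1.63% ± 0.62 (SD, n = 6 areas) in bright and 0.723% ± 0.073 in below-median cells.

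The mean share differed little over most of the stain's range and was high at its end. Averaged over the 6 areas, biliary markers held 1.07% ± 0.16 (SD) of counts below the 25th percentile of PanCK intensity, 1.24% ± 0.28 between the 75th and 90th percentiles and 1.51% ± 0.51 between the 95th and 98th. It was 1.83% ± 0.55 between the 98th and 99th percentiles, 2.79% ± 1.31 in the next 0.5% and 4.88% ± 1.52 in the brightest 0.5%, about 42 cells per area. Single areas differed before the top 2%. HIRA KO area 1 had 1.06% below the 25th percentile, 1.72% between the 75th and 90th and 2.39% between the 95th and 98th. In Control area 1 these shares were 1.37%, 1.09% and 1.27%. Control area 2 went against the mean between the 99th percentile and the last bin, with 0.715%, and had the lowest share in the last bin, 2.81%. Spp1 ran from 6.98 ± 2.78 per 10000 below the 25th percentile to 92.2 ± 44.2 in the brightest 0.5%. The secreted hepatocyte proteins took the opposite course at the end, with 8.55% ± 3.23 between the 95th and 98th percentiles and 4.06% ± 1.84 in the brightest 0.5%.

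**Figure D3:**
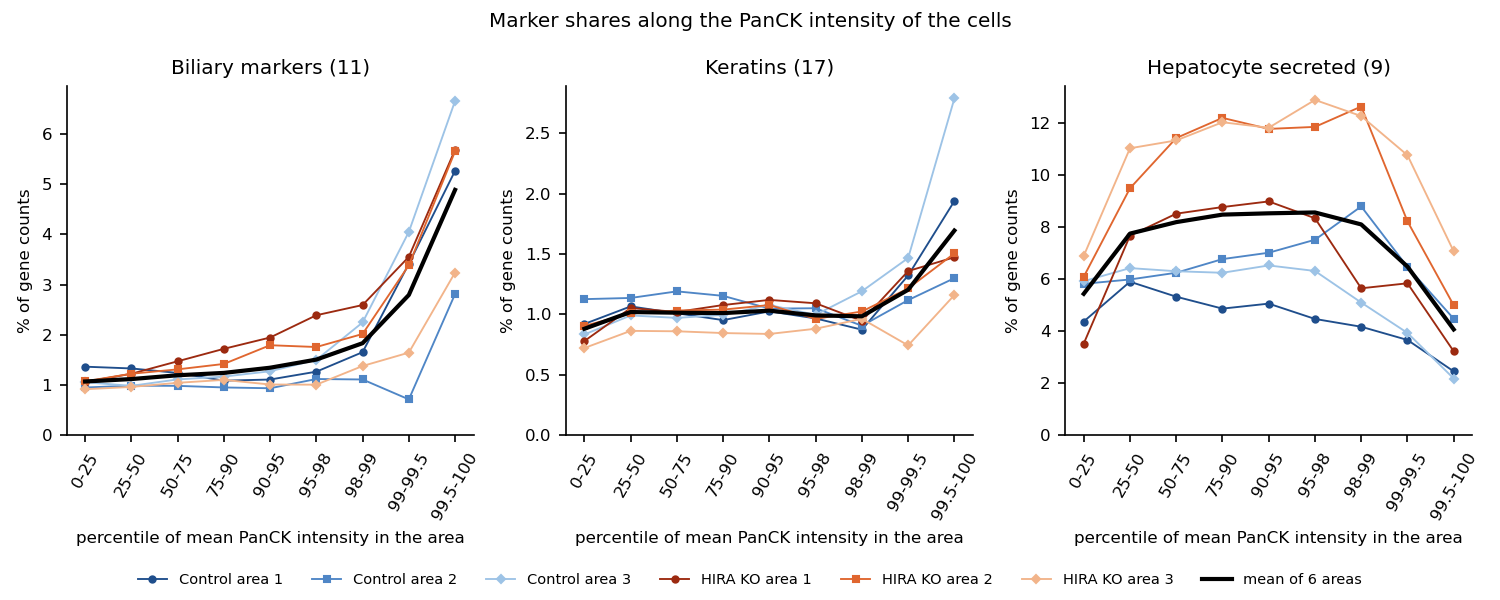
Share of gene counts (y axes, percent) from 11 biliary markers, 17 keratins and 9 secreted hepatocyte proteins in 9 bins of mean PanCK intensity, by percentile within the tissue area (x axes; bins of unequal width). Colored lines are tissue areas and the black line is their mean, which for biliary markers was 1.07% in the first bin and 4.88% in the last.

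Biliary transcripts were then counted per cell at equal depth. With every cell thinned to 20 counts, 151 of 1001 bright cells held 2 or more biliary counts, 182 held 1 and 668 held 0. Cells with 2 or more made up 11.6%, 5.11% and 16.9% of bright cells in Control and 20.1%, 22.2% and 9.93% in HIRA KO areas. Among below-median cells the shares were 4.38%, 2.17% and 3.35%, and 3.32%, 3.92% and 2.53%. Exact 95% binomial intervals of the 2 sides, which cover counting error only, did not meet in 5 areas and met in Control area 2 (2.08% to 10.2% in bright, 1.71% to 2.71% in below-median cells). Without thinning the shares were 23.4% to 55.2% for bright and 23.4% to 40.5% for below-median cells, whose median counts per cell were higher. With thinning but without Clu in the list, 64 of 1001 bright and 354 of 24952 below-median cells held 2 or more. The comparisons by this count that follow used the list with Clu, so they rest in large part on that gene.

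In the reverse view, of 2052 cells with 2 or more biliary counts of 20 in the whole series, 151 (7.36%) were PanCK-bright, 4.27% in Control area 2 to 9.20% in Control area 3, above the 2% of all cells in every area. Their median PanCK percentile was 46.2 to 69.4, and 32.8% to 54.1% of them lay below the median of their area. Of 200 cells with 4 or more such counts, 24 (12%) were bright. Over all cells of an area, PanCK intensity and the biliary share of counts had rank correlations of -0.04 to 0.10 (6829 to 10180 cells per area, cells of 1 section), whereas PanCK and CD3 intensity had rank correlations of 0.29 in HIRA KO area 1 to 0.87 in Control area 2.

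Bright cells were also compared by their number of biliary counts. A cell with 0 among 20 thinned counts can still hold biliary transcripts, and bright cells with 0 held 1.40% ± 0.62 (SD, n = 6) of all their counts on biliary markers, against 0.793% ± 0.084 in below-median cells with 0, higher in all 6 areas though by little in Control area 2 (0.807% and 0.803%). In cells with 2 or more biliary counts of 20, the median CD3 intensity was 410.8, 687.7 and 443.6 in Control and 438.2, 395.6 and 619.8 in HIRA KO areas. In bright cells with 0 it was 976.6, 792.0 and 966.3, and 812.5, 678.6 and 1059.8, higher in all 6 areas. The DAPI stain of DNA ran the other way, with medians of 2758.8 to 7831.4 in the first kind and 1548.6 to 2646.2 in the second, and was higher in the first kind in all 6 areas. Their median cell area, 3324 to 8534 square pixels, was smaller in all 6 areas than that of cells with 0, 8213 to 12959. Transcripts lay in the nucleus for a median of 45.1% to 74.4% of counts in the first kind and 32.7% to 43.5% in the second. Numbers of the first kind were small, from 7 cells in Control area 2 to 45 in HIRA KO area 2. Below-median cells with 2 or more biliary counts differed from those with 0 in the same direction on average, so the direction was not particular to bright cells. For CD3 and transcripts in the nucleus the difference was smaller than in bright cells. Their area medians averaged 3509 ± 749 and 2977 ± 558 for DAPI and 7464 ± 2096 and 9956 ± 2617 square pixels for cell area. For CD3 they averaged 547 ± 109 and 587 ± 111, against 499 ± 123 and 881 ± 143 in bright cells. For transcripts in the nucleus they averaged 57.4% ± 3.1 and 54.0% ± 2.8, against 58.0% ± 12.5 and 36.3% ± 3.7 in bright cells. Among below-median cells, Control area 2 went the other way for CD3 (555.1 and 550.4). Control area 1 did so for transcripts in the nucleus (53.4% and 55.1%).

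The genes held by both kinds of bright cells differed too. Secreted hepatocyte proteins made up 3.58% ± 0.80 of counts in bright cells with 2 or more biliary counts and 7.53% ± 3.52 in those with 0, lower in the first kind in all 6 areas. Kupffer markers made up 0.575% ± 0.230 and 1.34% ± 0.35. In below-median cells with 2 or more and with 0 biliary counts, Kupffer markers made up 0.654% ± 0.148 and 1.11% ± 0.26. Secreted hepatocyte proteins made up 6.00% ± 0.94 and 6.64% ± 1.56 there. Of the 13 called genes outside the lists, 4 were higher in bright cells with 2 or more biliary counts in all 6 areas. These were Fgfr3 (39.3 and 17.7 per 10000), Gas6 (51.9 and 17.8), App (30.99 and 11.6) and Ezr (28.1 and 12.9). In at least 5 areas, 8 of the 13 were higher. Adgrg1 was higher in only 2 areas (9.49 and 11.6). Below-median cells had the same direction on average for Fgfr3 (20.5 and 11.4), Gas6 (21.2 and 11.4), App (15.996 and 10.5) and Ezr (12.2 and 9.44). The direction was thus not particular to bright cells. Gpnmb was lower in bright cells with 2 or more biliary counts in all 6 areas. It was at 4.1 ± 3.4 per 10000 in these and 18.8 ± 19.8 in bright cells with 0, while below-median cells with 0 held 5.2.

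**Figure D4:**
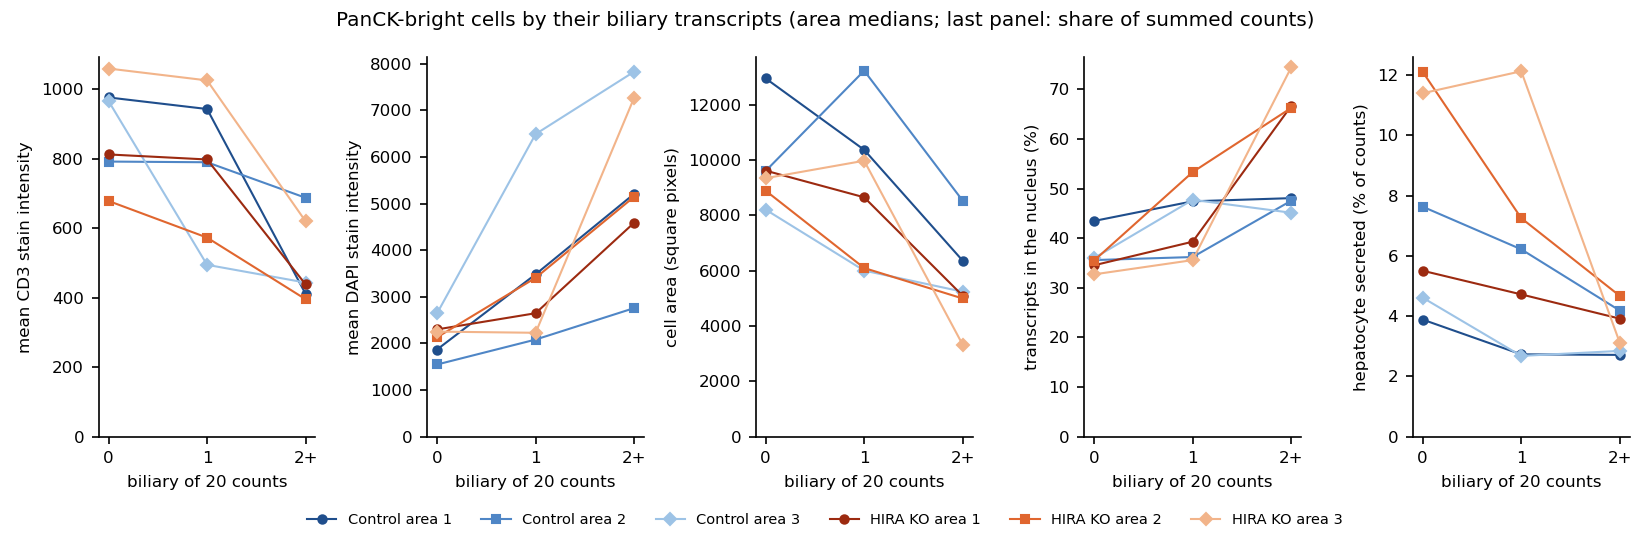
PanCK-bright cells of each tissue area by the number of biliary counts (0, 1, 2 or more) among 20 thinned counts (x axes), with median CD3 and DAPI stain intensity, cell area and nuclear share of transcripts, and the summed share of secreted hepatocyte genes (y axes, linear, from 0). Bright cells with 2 or more biliary counts had a lower CD3 and a higher DAPI median than bright cells with 0 in all 6 areas.

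Taken over all bright cells, 10 cell measures other than PanCK intensity, of which gene counts entered the rule only as a minimum of 20, were compared by exact sign-flip permutation tests over the 6 areas, two-sided. Of these, 6 reached p = 0.03125, the smallest that 6 areas allow, and each of these had an adjusted p of 0.0521 over the 10 measures in the exact permutation tests, so none passed 0.05. Transcripts in the nucleus had medians of 45.1%, 36.6% and 39.6% in Control bright cells and 36.6% to 46.2% over all 6 areas, against 55.0%, 57.8% and 53.5% in Control and 49.2% to 57.8% over all 6 areas below the median. The sides did not overlap. CD3 intensity was 1.46 times (geometric mean) that of below-median cells and B2M intensity 1.26 times, each higher in 6 of 6 areas, whereas T and NK genes gave 0 calls.

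Nucleus area (2152 ± 214 square pixels in bright, 2821 ± 190 in below-median cells, SD over 6 areas), gene counts per cell (88.1 ± 13.7 and 117.3 ± 24.2) and distance to the image edge (580.2 ± 115.0 and 647.3 ± 32.5 pixels) were lower in 6 of 6 areas. The edge distance differed most in Control area 2 (404 and 616) and HIRA KO area 2 (476 and 621). It was nearly equal in Control area 3 (704.5 and 705) and HIRA KO areas 1 (628 and 634) and 3 (652 and 655). Cell area was lower in 5 areas and higher in HIRA KO area 1. CD45 intensity was higher in 5 areas, DAPI in 2 and the negative probe rate in 1. Within 200 pixels of an image edge lay 24.1% to 29.9% of bright and 15.5% to 18.3% of below-median cells. Without these cells 21 genes were higher, 18 of them among the 23, and with both sides drawn from cells below the median cell area 43 were higher, 20 of them among the 23.

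Bright cells lay together. Among the 20 nearest cells of a bright cell, 12.1%, 11.4% and 16.2% were bright in Control and 12.5%, 9.11% and 11.3% in HIRA KO areas, against 2% of cells in each area. This was 6.03 ± 1.15 times (SD, n = 6) the share in the area and above 1 in 6 of 6 areas (exact sign-flip permutation test, two-sided p = 0.03125, the smallest that 6 areas allow). Still, 19.2% to 33.6% of bright cells had 0 bright cells among their 20 nearest. The field of view with the most bright cells held 18.7% to 37.1% of those of its area, and with percentiles taken within each field the ratio was 4.44 ± 0.68. The test of genes then gave 37 higher, 22 of them among the 23.

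Genotype was then compared within the bright cells, since the study asks what loss of HIRA in hepatocytes does to the liver. Of 726 genes tested between 3 HIRA KO and 3 Control sums, 0 passed by edgeR (0.0%), with 44 (6.06%) at an unadjusted p under 0.05, 27 higher (3.72%) and 17 lower (2.34%), and 0 passed by DESeq2, with 20 and 5. With the slide row as a block, each row holding 1 area of each group, 0 passed as well by edgeR, with 25 and 13 at an unadjusted p under 0.05. The difference of the bright contrast between genotypes was called for 0 of 998 genes (0.0%) by edgeR, with 50 (5.01%) at an unadjusted p under 0.05, 23 larger and 27 smaller in HIRA KO, and for 0 by DESeq2, with 9 and 13.

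The rule took the top 2% of every area, so a change in how many cells stain strongly cannot appear in the comparison of genotypes. Cells with 2 or more biliary counts of 20 numbered 331, 164 and 261 of 8181, 6829 and 7058 cells in Control areas. In HIRA KO areas they numbered 516, 549 and 231 of 10180, 10150 and 7519, and this was not tested. Within bright cells, the summed share of the biliary genes overlapped between genotypes. It was 3.02% (1.44% to 4.28%, n = 3) in Control and 2.94% (1.84% to 3.80%, n = 3) in HIRA KO bright cells, and the log2 ratio of bright to below-median cells averaged 1.32 and 1.38. HIRA KO over Control, the log2 fold change within bright cells was -0.59 for Spp1 (SE 0.47, edgeR adjusted p = 0.883), 0.45 for Clu, -0.73 for Krt19 and -0.98 for Krt18, none of which passed. Krt19 did not overlap, with 14.96 to 22.8 per 10000 in Control and 5.22 to 13.6 in HIRA KO, but 97 of the 726 genes (13.4%) did not overlap either.

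The lowest p belonged to genes of phagocytes and neutrophils, named after their values were seen, and none passed. Gpnmb was at 3.93, 5.98 and 8.98 per 10000 in Control and 12.7, 39.6 and 9.92 in HIRA KO bright cells (log2 fold change 1.86, SE 0.50, edgeR adjusted p = 0.296), against 3.92 to 5.81 below the median in all 6 areas. HIRA KO area 2 held 114 Gpnmb counts in bright cells and the other areas 6 to 29. Clec7a, the beta-glucan receptor dectin-1, was at 1.96, 4.49 and 1.38, and at 7.91, 8.69 and 7.31 (1.73, SE 0.45, edgeR adjusted p = 0.296), on counts of 2 to 25 per area. S100a8 and S100a9, the subunits of the neutrophil protein calprotectin, had 1.55 and 1.21 with the same adjusted p, and Ctsd, a lysosomal protease, had 1.25 (edgeR adjusted p = 0.363).

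Without HIRA KO area 2 the log2 fold change of Gpnmb between bright and below-median cells was 0.80 and no longer passed (edgeR adjusted p = 0.0609). For cell measures of bright cells, the exact permutation test of 3 against 3 areas cannot go below p = 0.1, and the adjusted p was 0.8 or more for all 10.

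**Figure D5:**
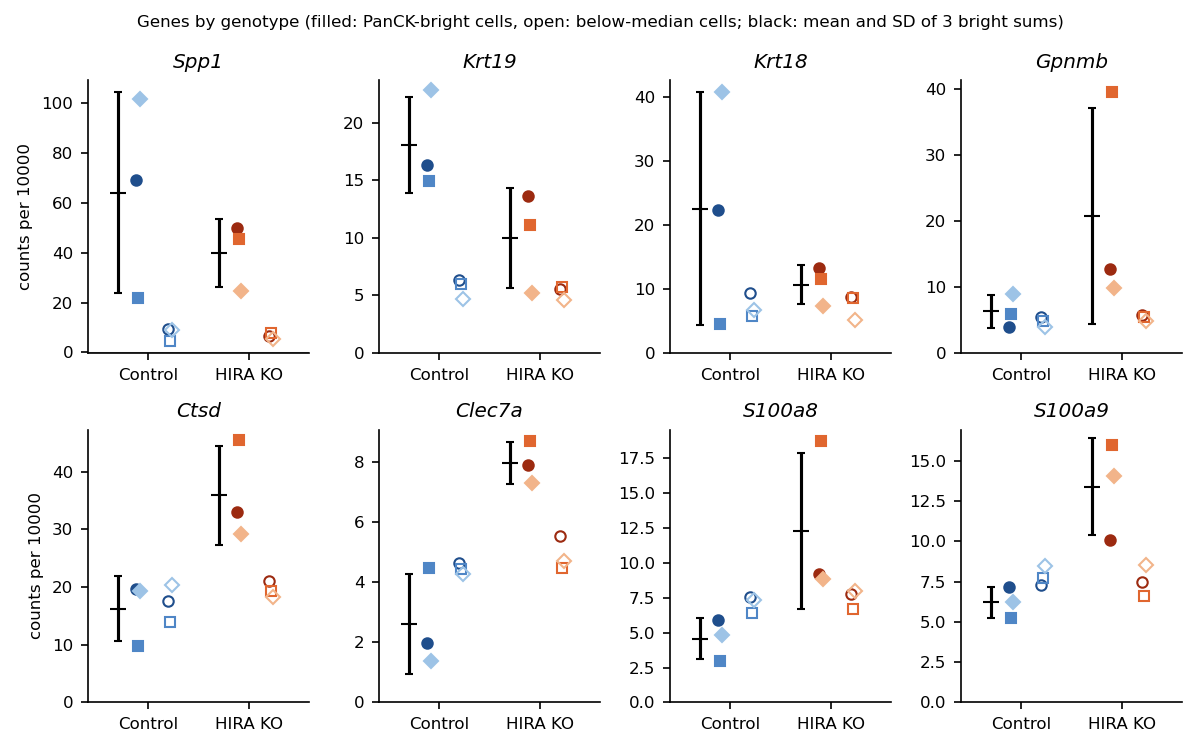
Counts per 10000 gene counts (y axes, linear, from 0) of 8 genes in PanCK-bright (filled) and below-median cells (open) of 3 Control and 3 HIRA KO areas, with the mean and SD of the bright sums in black. Of these genes, named after their values were seen, Krt19, Gpnmb, Ctsd, Clec7a, S100a8 and S100a9 did not overlap between the genotypes in bright cells, as 13.4% of all genes tested did not, and none of the 8 genes passed the edgeR test between genotypes.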

How the data were processed

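The values the authors deposited are raw counts for every target in each cell, the mean stain intensity per cell on a linear scale, cell areas and positions, and a table of single transcripts with their compartment. Per the file headers these are values per cell and field of view. Any background subtraction of the stains, the pixel size and the versions of the decoding and segmentation software are not given in the sources used here. Cell outlines were not used here. The count and transcript tables differed in 0 cells.

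Cells with at least 20 gene counts were ranked by mean PanCK intensity within each tissue area. Counts of the top 2% and of cells below the median were summed per area, and negative probes stayed out of library sizes and tests. The 12 sums were tested with edgeR 4.0.16 (R 4.3.3), with TMM scaling, filterByExpr, the quasi-likelihood test and Benjamini-Hochberg adjustment at 0.05. The labels do not tie areas to mice, so p-values refer to areas and not to mice. Those of the bright contrast measure how the difference of the sides varied over areas, and those of genotype the spread of levels between areas. Cell measures were compared as log2 ratios of area medians with exact permutation tests (Python 3.11.15, scipy 1.17.1). For shares of cells with marker counts, each cell was thinned at random to 20 counts. DESeq2 1.42.0 and limma 3.58.1 were alternatives. Gene positions are those of GENCODE vM21 on GRCm38, matched by symbol.

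On simulated counts for the 998 genes of the bright contrast with 200 changed, the test recovered 49.5% at 1.5-fold, 96% at 2-fold and 100% at 3-fold, with 1, 7 and 4 false calls. The simulation gave both sides of an area the same area effect, all genes 1 dispersion and all areas the same fold. A fold that varies between areas was not simulated, so these figures hold only for an even one.

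Genes named are up to 15 per direction with the largest fold change among those called, with 1 direction in all 6 areas and more counts on average than any negative probe (159.8 per sum at most), up to 5 per direction for genotype by the same rule, the measured biliary and keratin members (1 of them is not reported here), and up to 3 members of each other list. No mesothelial gene of 7 listed was a target. The members, lists and tests were chosen with earlier results of these data known.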

Additional observations from a re-analysis of the deposited data

Results flagged for a closer look

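The share of gene counts from the 5 neutrophil markers moved in opposite directions between the genotypes. It was lower in PanCK-bright than in below-median cells in all 3 Control areas (0.288%, 0.232% and 0.263% against 0.330%, 0.316% and 0.304%) and higher in all 3 HIRA KO areas (0.374%, 0.504% and 0.407% against 0.317%, 0.297% and 0.303%). The mean difference of bright minus below-median shares was 0.179 percentage points larger in HIRA KO than in Control, and this was not tested for the list. The list was flagged after its values were seen. Its bright sums held only 44, 31 and 38 counts in Control and 85, 145 and 78 in HIRA KO areas. For its single genes the edgeR interaction gave S100a9 1.18 (adjusted p = 0.345) and S100a8 1.40 (adjusted p = 0.357), which did not pass.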

How the results depend on the processing

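Genes higher in bright cells numbered 23 as reported and 36 with the top 1% called bright, 37 with percentiles within each field of view, 43 among small cells, 11 without the tissue area as a block, 10 with cell means in limma and 14 (without HIRA KO area 1) to 33 (without Control area 2) when an area was left out. Genes lower numbered 3 as reported and 9 with the top 1%, 8 with the top 5%, 13 within fields of view, 11 by maximum intensity, 20 among small cells, 5 with library size only, 1 by DESeq2, 0 without the block, 12 in limma and 1 to 7 when an area was left out. Chosen after seeing the data, leaving out cells near the image edge gave 6 lower, and ranking cells by PanCK over CD3 intensity gave 128 higher and 65 lower and turned the log2 fold change of Gpnmb to -0.11. The mean log2 ratio of biliary shares, 1.35, was 1.90 among small cells, 2.69 by PanCK over CD3 and 1.21 to 1.51 when an area was left out.

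Between genotypes, genes higher in HIRA KO numbered 3 with the top 1% (Cotl1, Ctsd and Psap), 2 with the top 5% (Gpnmb and Igkc), 1 by maximum intensity (Igha) and 0 to 2 when an area was left out (S100a8 and Gpnmb without HIRA KO area 1). The bright contrast was larger in HIRA KO for 2, 1 and 1 genes with the top 1%, by maximum intensity and among small cells, and smaller for 4, 1 and 1 with the top 1%, the top 5% and by maximum intensity, and for 0 to 1 when an area was left out (Icam1 without Control area 2). These genes were named after their values were seen. The log2 ratio of cell area was 0.17 with the top 5% against -0.20, that of DAPI 0.21 with the top 1% against -0.19 and that of negative probes 0.13 with the top 5% against -0.10. Between genotypes the CD3 difference was 0.43 with the top 1% against -0.11 and that of edge distance -0.44 against 0.03. The cause was not tested. By replicate number, no paired analysis was possible because the field numbers in the labels are not shared between the groups, whereas pairing areas by slide row called 0 genes higher and 0 lower in HIRA KO. The bright sums of 13369 to 28758 counts limit what genes with few counts can show.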

Other observations

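Setting PanCK against a second stain of the same cell changed which cells ranked highest. Over all cells, PanCK and CD3 intensity had a rank correlation of 0.29 to 0.87 per area, and ranking cells by their ratio, an alternative chosen after seeing the data, put 6.20% ± 1.48 (SD, n = 6 areas) of gene counts on biliary markers in the top 2%, against 0.938% ± 0.088 below the median. With that ranking 12.8% of the 998 genes tested were higher and 6.51% lower by edgeR, and 10 of 11 biliary markers were higher and 0 lower by edgeR, among them Cd24a (log2 fold change 1.06, adjusted p = 2.58e-06), Krt7 (1.304, adjusted p = 4.58e-06) and Cldn4 (0.64, adjusted p = 0.00159), which did not pass with PanCK alone. Of the 17 keratins 5 were higher, with Krt23 at 1.28 (adjusted p = 8.47e-06).

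Under the same ranking 6 of 9 secreted hepatocyte genes, 5 of 8 Kupffer genes, 5 of 7 sinusoidal endothelial genes and 4 of 8 plasma cell genes were lower by edgeR, and 4 of 13 portal fibroblast and collagen genes were higher. Kupffer markers held 0.521% ± 0.127 of counts in the top 2% and 1.35% ± 0.41 below the median. Cells with a low CD3 stain also rank high by the ratio, so these lists describe both stains, and the part of each was not tested.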
